A study of Rattus norvegicus with 12 samples.

Results

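The 8 genes described here encode immediate early transcription factors: the zinc finger factors Egr1, Egr2, Egr3 and Egr4, the orphan nuclear receptors Nr4a1, Nr4a2 and Nr4a3, and the basic helix-loop-helix PAS factor Npas4. They were taken by name from 28111 gene names in the rat transcriptome tables, where each stood in 1 row and none was listed at 0 in any of the 12 libraries. The set was chosen on differences already seen in these libraries, so the values of the 8 genes are given below as a description, with standard errors and no p-values of their own, and counts past a threshold stand beside those of all genes. Primary mixed neuroglial cultures from rat cerebral cortex were compared without addition (intact culture, IC) and 4 h after addition of 1 of 3 products released by glial progenitor cells that had been derived from human induced pluripotent stem cells. The products were extracellular vesicles (EV, 10 µg/mL), proteins of 3–100 kDa (15 µg/mL), and the total secretome (45 µg/mL). Each condition had 3 libraries, collected after 10 days in vitro. The donor pups were newborn (postnatal day 0 in the labels). By the study's methods all cultures, IC included, had received cytosine arabinoside, which limits the growth of dividing cells. Because the preparations were used at different doses, preparation and dose cannot be told apart. The study repeated its experiments on unrelated cultures and names a day covariate for the IC and EV libraries, but the sources used here do not tie a library to a culture or a day. A p-value therefore measures only the spread between these samples, which may be technical in part.

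Immediate early genes are transcribed within minutes of a stimulus without new protein synthesis, mostly through serum response factor (SRF) with its ternary complex partners and through CREB, both reached by ERK and calcium signalling. The proteins they encode then act on later genes. In neurons Egr and Nr4a factors respond to growth factors as well as to synaptic activity, whereas Npas4 is known for a narrower response to calcium entry, and Egr proteins are held back by the corepressors Nab1 and Nab2.

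Promoter sequences are shown first for Egr1 and Egr2, the members with the greatest distance from IC, and for Nr4a1 and Npas4, which differed less, so that their sites can be compared. RefSeq promoters of rat build GRCr8 were held for 6 of the 8 members; Egr3 and Nr4a3 had no entry in the table used. Each sequence covers the 250 bases before the start of the gene, 5′ to 3′ on the gene's strand, with SRF-binding CArG boxes and CRE cores (TGACG, or CGTCA on the other strand, the core of the CREB site) in capitals. The windows lie at chr18:26736828-26737077 (+) for Egr1, chr20:21054442-21054691 (-) for Egr2, chr7:134259888-134260137 (+) for Nr4a1 and chr1:211716103-211716352 (-) for Npas4.
Egr1: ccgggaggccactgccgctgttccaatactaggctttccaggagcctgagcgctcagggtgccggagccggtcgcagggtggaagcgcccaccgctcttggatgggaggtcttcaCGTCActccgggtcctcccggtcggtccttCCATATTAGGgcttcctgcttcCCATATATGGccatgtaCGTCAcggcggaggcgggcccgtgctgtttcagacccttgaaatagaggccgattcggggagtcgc
Egr2: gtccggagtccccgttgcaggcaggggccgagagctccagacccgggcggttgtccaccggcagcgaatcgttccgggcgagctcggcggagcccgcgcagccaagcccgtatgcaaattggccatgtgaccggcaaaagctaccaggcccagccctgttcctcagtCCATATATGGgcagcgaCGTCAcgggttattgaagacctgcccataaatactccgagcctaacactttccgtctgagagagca
Nr4a1: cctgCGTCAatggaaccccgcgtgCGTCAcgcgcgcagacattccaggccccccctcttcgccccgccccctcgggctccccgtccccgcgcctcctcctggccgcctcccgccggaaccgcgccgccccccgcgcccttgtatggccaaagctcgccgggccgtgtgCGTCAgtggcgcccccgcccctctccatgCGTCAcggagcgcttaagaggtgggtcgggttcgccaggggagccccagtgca
Npas4: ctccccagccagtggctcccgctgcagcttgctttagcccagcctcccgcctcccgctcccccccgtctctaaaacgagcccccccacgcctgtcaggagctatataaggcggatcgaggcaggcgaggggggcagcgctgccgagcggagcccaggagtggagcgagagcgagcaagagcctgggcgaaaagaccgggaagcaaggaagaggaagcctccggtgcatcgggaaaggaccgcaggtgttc

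Egr1 held 2 CArG boxes in this window and Egr2 held 1, whereas the windows of Egr4, Nr4a1, Nr4a2 and Npas4 held none. A CArG box was present in 1.5% of the 33469 promoter windows of this length. CRE cores were found in 5 of the 6 members, against 18.2% of all windows, and Nr4a1 had 4 of them. The full CRE (TGACGTCA, which contains the core) was in 0 of the 6 members and 1.59% of all windows, the Egr site GCGNGGGCG was in Nr4a1 alone against 4.29%, and the Nr4a monomer site AAAGGTCA was in 0 against 1.24%. Both strands were searched for every motif. In Egr1 and Egr2 a CArG box and a CRE core stood at the same place, 83 to 62 bases before the start, separated by 7 bases. This spacing was chosen after the windows had been seen. With the CArG box upstream, the only order counted, it occurred in 3 of the 33469 windows (0.00896%). The third was Dusp5, a phosphatase that inactivates ERK, at 72 to 51 bases before the start. The 3 stretches are printed because they hold the same pair of motifs at the same spacing, with both motifs in capitals. The bases between the motifs differ among the 3 genes, and the CArG box of Dusp5 differs from that of Egr1 and Egr2.
Egr1: CCATATATGGccatgtaCGTCA
Egr2: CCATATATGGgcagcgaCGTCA
Dusp5: CCTTATATGGgcactcaCGTCA
A match is a description of letters and not a measured binding site. Dusp5 belonged to the list of ERK feedback inhibitors described further on, where its RNA levels are given.

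In intact cultures the members differed widely in abundance, given here as TPM (transcripts per 1e+06 transcripts), which correct for transcript length. Egr1 (11.6 ± 1.56 TPM, SD, n = 3), Egr3 (10.5 ± 4.23) and Nr4a3 (6.38 ± 2.89) were the most abundant. Nr4a2 (2.94 ± 0.411) and Nr4a1 (2.14 ± 0.371) lay below them, and Npas4 (0.722 ± 0.349), Egr4 (0.625 ± 0.525) and Egr2 (0.360 ± 0.109) averaged under 1 TPM. TPM keep no read depth, so the counting error behind such low values is unknown. Replicate 2 of IC was the lowest of the 3 for every member but Egr1 and Npas4.

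**Figure D1:**
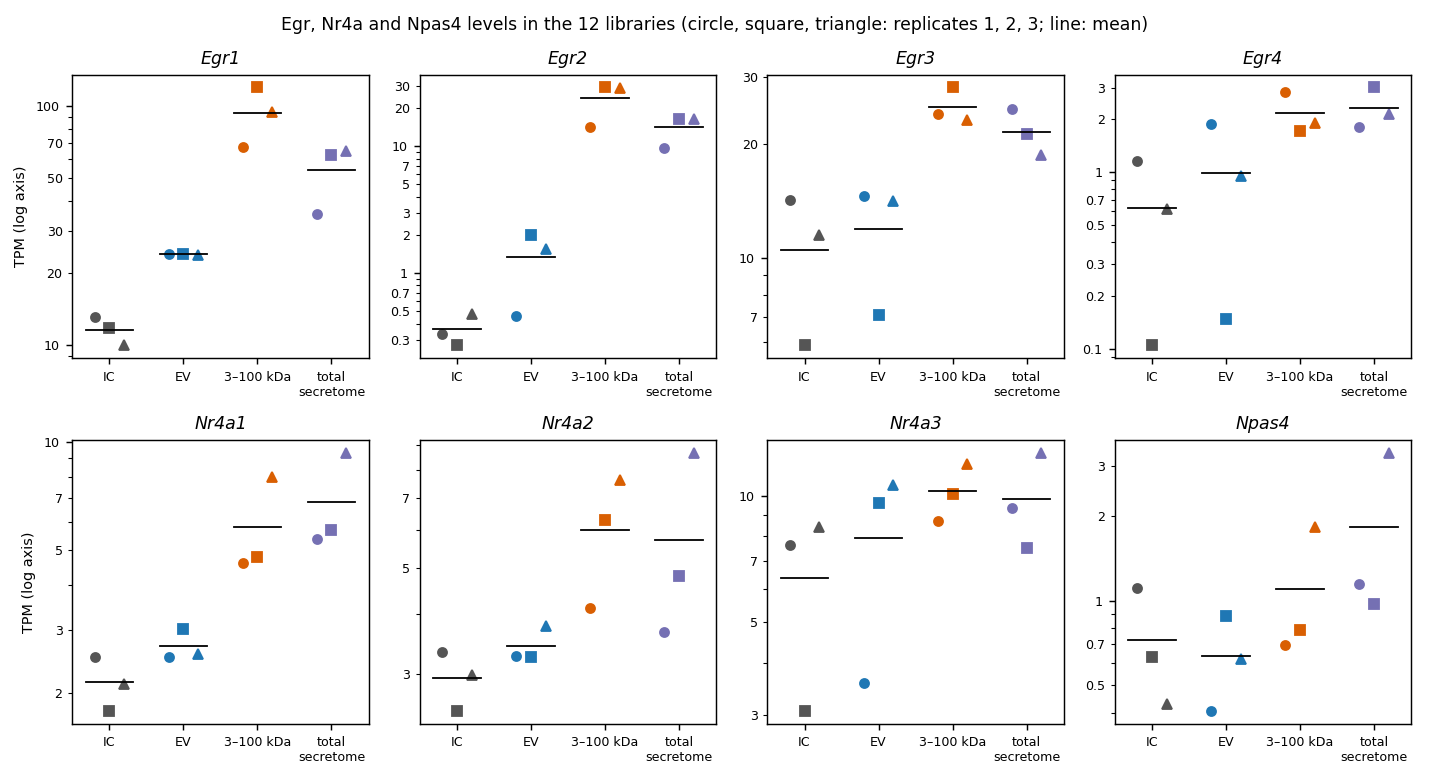
TPM on a log axis for each member in the 12 libraries, with circles, squares and triangles for replicates 1, 2 and 3 and a line at the mean of each condition. Egr1 and Egr2 separate the 3–100 kDa and total secretome libraries from IC and EV, whereas for Nr4a3 and Npas4 each condition overlaps with the next in the order of means.

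Egr1, the most abundant member and an early target of ERK signalling, measured 13.0, 11.8 and 9.94 TPM in IC, whereas EV libraries held 24.0, 24.0 and 23.7 TPM. It reached 67.2, 119 and 94.3 TPM with 3–100 kDa proteins and 35.2, 62.3 and 64.4 TPM with the total secretome. The mean was 2.06 times that of IC in EV, 8.08 times with 3–100 kDa proteins and 4.66 times with the total secretome. No library of one condition overlapped another in these TPM values, giving the order IC, EV, total secretome, 3–100 kDa proteins. The last step is small, since the lowest 3–100 kDa library stood at 67.2 TPM and the highest secretome library at 64.4 TPM, and after scaling between libraries these conditions overlapped. EV replicates agreed closely for Egr1 (23.9 ± 0.161 TPM), while those of the 3–100 kDa proteins spread by ± 26.1 TPM.

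Egr2, known also as Krox20 and needed for myelination by Schwann cells, showed the widest range. Its levels were 0.332, 0.269 and 0.480 TPM in IC, and 0.455, 1.99 and 1.55 TPM in EV. With 3–100 kDa proteins Egr2 was at 14.2, 29.1 and 28.6 TPM, and with the total secretome at 9.69, 16.5 and 16.3 TPM. Thus EV replicate 1 lay within the IC range while EV replicates 2 and 3 lay above it. Every 3–100 kDa and secretome library exceeded every IC and EV library, and these 2 preparations overlapped with each other. The means with 3–100 kDa proteins and total secretome were 66.4 and 39.3 times that of IC, ratios taken against a level under 1 TPM. Replicate 1 was the lowest of the 3 in both preparations for Egr1 as well as Egr2.

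Egr3, a factor linked to muscle spindles and to synaptic plasticity, was already abundant without addition, at 14.2, 5.88 and 11.5 TPM. EV libraries gave nearly the same values, 14.6, 7.07 and 14.1 TPM, again with replicate 2 the lowest. Egr3 was at 23.9, 28.1 and 23.1 TPM with 3–100 kDa proteins and at 24.6, 21.2 and 18.7 TPM with the total secretome. All 6 of these libraries stood above the 6 of IC and EV, and the means were 2.38 and 2.04 times that of IC.

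Egr4, the least characterised of the family, remained low throughout. It measured 1.15, 0.104 and 0.619 TPM in IC and 1.88, 0.146 and 0.958 TPM in EV. The values were 2.87, 1.73 and 1.89 TPM with 3–100 kDa proteins, and 1.81, 3.04 and 2.16 TPM with the total secretome. Libraries of both preparations exceeded all of IC, but EV replicate 1 fell inside their range. As with Egr3, replicate 2 was the lowest in IC and in EV.

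Among the orphan receptors, Nr4a1 (Nur77) measured 2.52, 1.78 and 2.12 TPM in IC, against 2.51, 3.00 and 2.56 TPM in EV. It was at 4.61, 4.77 and 8.01 TPM with 3–100 kDa proteins and at 5.37, 5.67 and 9.34 TPM with the total secretome. Both preparations lay above all IC and EV libraries, by 2.71 and 3.18 times the IC mean, and they overlapped with each other. The EV and IC libraries touched in TPM and separated by a narrow margin once scaled.

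Nr4a2 (Nurr1), required for midbrain dopaminergic neurons, was at 3.33, 2.51 and 2.99 TPM in IC and 3.26, 3.25 and 3.78 TPM in EV. It measured 4.11, 6.27 and 7.61 TPM with 3–100 kDa proteins and 3.66, 4.80 and 8.69 TPM with the total secretome. The IC libraries were exceeded by all 6, although the lowest secretome library passed the highest IC library by little. EV overlapped both IC and the total secretome for Nr4a2.

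Nr4a3 (Nor1) differed from the other Nr4a genes in having a broad range before any addition, at 7.64, 3.08 and 8.43 TPM. Its values were 3.58, 9.60 and 10.6 TPM in EV, 8.72, 10.1 and 11.9 TPM with 3–100 kDa proteins, and 9.35, 7.49 and 12.7 TPM with the total secretome. Although the 3 levels with 3–100 kDa proteins exceeded IC in TPM, scaling brought them into overlap, and neighbouring conditions in the order of Nr4a3 means all overlapped.

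Npas4, a factor of inhibitory synapse formation, measured 1.11, 0.630 and 0.428 TPM in IC, against 0.406, 0.885 and 0.621 TPM in EV. It was at 0.694, 0.789 and 1.82 TPM with 3–100 kDa proteins and at 1.15, 0.972 and 3.35 TPM with the total secretome. Every pair of neighbouring conditions overlapped for Npas4, and replicate 3 of the total secretome stood above its other libraries. The same replicate 3 was the highest of the 3–100 kDa and secretome libraries for Nr4a1, Nr4a2 and Nr4a3.

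Differences between conditions were estimated with limma on log2(TPM + 1) after scaling, over all genes that reached 1 TPM in 3 or more of the 6 libraries compared, and a gene was called at a false discovery rate (FDR) of 0.05. The added 1 understates the change of low genes. Since the members had been selected on such differences, nothing is read from their calls. Against IC and against EV, Egr2 and Egr4 passed the filter only with the libraries of 3–100 kDa proteins or total secretome. The filter therefore favoured higher values there, although Egr4 still overlapped between EV and either preparation. Npas4 passed it against IC through IC replicate 1 and total secretome replicates 1 and 3.

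Against IC, the 3–100 kDa proteins gave log2 differences of 4.15 ± 0.31 (SE) for Egr2 and 2.91 ± 0.22 for Egr1. The next were Egr3 (1.28 ± 0.28), Nr4a1 (1.11 ± 0.28), Egr4 (1.01 ± 0.30), Nr4a2 (0.83 ± 0.27) and Nr4a3 (0.72 ± 0.35, or 0.33 without IC replicate 2). Npas4 did not pass the filter, and its log2 difference without it was 0.30 ± 0.27. Of the 7 members that passed, 2 (Egr1 and Egr2) were past the FDR, where 2.83% of the 12792 genes tested were past it in the same direction. Without any 1 of the 3–100 kDa libraries Egr2 no longer passed the filter and the count was 1 (Egr1), and without IC replicate 2 it was 3, with Egr3 added. The libraries of 6 members did not overlap with IC after scaling, against 12.6% of genes with higher non-overlapping values. Egr2 ranked 10 and Egr1 ranked 30 of 12792 genes by size of the positive difference.

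With the total secretome the order was similar, Egr2 being 3.46 ± 0.28 and Egr1 2.10 ± 0.27 above IC on the log2 scale. Nr4a1 came next (1.30 ± 0.27), followed by Egr4 (1.09 ± 0.31), Egr3 (1.05 ± 0.28) and Nr4a2 (0.72 ± 0.32, or 0.38 without total secretome replicate 3). The estimates for Npas4 (0.66 ± 0.37) and Nr4a3 (0.63 ± 0.37) belonged to genes whose libraries overlapped with IC, and Nr4a3 was at 0.24 without IC replicate 2. All 8 members passed the filter and Egr1 and Egr2 were past the FDR, beside 1.68% of 12790 genes. Without any 1 secretome library Egr2 no longer passed the filter, and Egr1 was past the FDR without replicate 1 but not without replicate 2 or 3. Without IC replicate 1 the count was 1 (Egr2). The count of members past the FDR was 3 without IC replicate 2 (Egr3 added) and with no scaling (Nr4a1 added). The difference of Egr1 lay between 1.90 and 2.43 over the 6 omissions. Non-overlapping higher libraries were seen for 6 members and 13.0% of genes, and Egr2 ranked 9 and Egr1 ranked 48.

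Addition of EV gave a log2 difference of 0.98 ± 0.15 for Egr1, rank 139 of 12754 genes. The other members that passed the filter lay closer to IC: Nr4a3 by 0.25 ± 0.46, Nr4a1 by 0.23 ± 0.21, Egr3 by 0.17 ± 0.39 and Nr4a2 by 0.17 ± 0.21. Of these 5 members 0 were past the FDR in limma, against 0.102% of genes in the higher direction, and 1 had an unadjusted p under 0.05, as had 360 of the 12754 genes. Egr1 and Nr4a1 did not overlap with IC after scaling, against 3.70% of genes. Below the filter, Egr2 differed by 0.70 ± 0.27, Egr4 by 0.26 ± 0.39 and Npas4 by -0.06 ± 0.18.

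**Figure D2:**
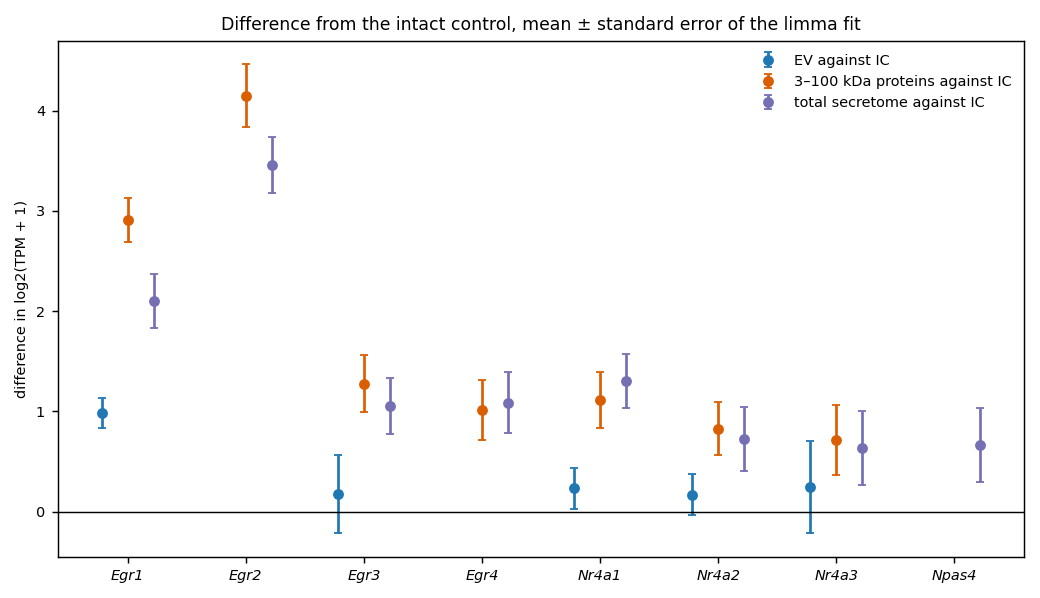
Log2 difference from IC of each member in EV, 3–100 kDa proteins and total secretome, on scaled log2(TPM + 1), as the limma estimate ± 1 SE, with no point where the gene did not pass the filter. Egr2 and Egr1 stand highest with 3–100 kDa proteins and with total secretome, at 4.15 and 2.91 and at 3.46 and 2.10.

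EV and 3–100 kDa proteins were then compared directly. Egr2 was lower in EV by 3.44 (SE 0.38) and Egr1 by 1.91 (SE 0.21) on the log2 scale, and these 2 of 7 members were past the FDR beside 0.494% of 12751 genes called lower. The remaining differences were -1.09 ± 0.29 for Egr3, -0.87 ± 0.27 for Nr4a1, -0.75 ± 0.37 for Egr4, -0.65 ± 0.26 for Nr4a2 and -0.46 ± 0.37 for Nr4a3. Libraries did not overlap for 5 members, all lower in EV, against 9.00% of genes. In a fit with the replicate number as a block, 341 genes were past the FDR in place of 68, and the members past it were again Egr1 and Egr2. Both calls were lost without 3–100 kDa replicate 2 or 3 and without EV replicate 2 or 3, while the differences lay between -2.16 and -1.76 for Egr1 and between -3.79 and -3.15 for Egr2 over the 6 omissions.

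Against the total secretome, EV gave lower Egr2 by 2.75 (SE 0.35), lower Egr1 by 1.11 (SE 0.27) and lower Nr4a1 by 1.06 (SE 0.27). Egr2 was the 1 member of 7 past the FDR, where 0.141% of genes were called lower, and the libraries of 4 members lay wholly below those of the secretome against 7.44% of genes. That call was lost with pseudocounts of 0.1 and 0.5, with no filter, and without replicate 2 or 3 of either condition, while without total secretome replicate 1 Egr1 was past the FDR in its place.

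Between the total secretome and the 3–100 kDa proteins, the log2 difference was -0.80 for Egr1 (95% interval -1.51 to -0.08) and -0.69 for Egr2 (-1.49 to 0.11), lower in the secretome. It was 0.19 for Nr4a1 (-0.54 to 0.93) and 0.37 for Npas4 (-0.55 to 1.29). These sizes depended on single libraries. Without total secretome replicate 1 the values were -0.47 for Egr1 and -0.40 for Egr2, without 3–100 kDa replicate 1 Npas4 was at 0.22, and Nr4a1 ran from -0.07 (without total secretome replicate 3) to 0.47 (without 3–100 kDa replicate 3). Of 8 members 0 were past the FDR in limma and 1 had an unadjusted p under 0.05, where 2 and 336 of all 12723 genes were. On scaled values Egr3 alone had libraries that did not overlap (-0.22 ± 0.11), lower in the secretome, against 3.22% of genes, whereas in unscaled TPM Egr3 overlapped and Egr1 did not. Replicate numbers were read as pairing these conditions, and in all 3 pairs Egr1 and Egr2 were lower and Nr4a1 and Npas4 higher in the secretome. With the replicate number as a block the standard errors were 0.11 for Egr1, 0.11 for Egr2, 0.14 for Nr4a1 and 0.21 for Npas4, and again 0 members were past the FDR.

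Comparisons with IC share the IC libraries, so agreement among them is not independent. The median log2 difference of the members that passed the filter was 0.23 for EV, 1.11 for 3–100 kDa proteins and 1.07 for total secretome, beside -0.01, -0.02 and -0.01 over all genes tested. Leaving out 1 library moved the EV median between 0.079 (without IC replicate 2) and 0.36 (without IC replicate 1).

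The make-up of the Egr family also differed between conditions. Summed Egr levels were 23.1 ± 5.36 TPM in IC, 38.1 ± 4.32 TPM in EV, 145 ± 35.1 TPM with 3–100 kDa proteins and 92.0 ± 18.0 TPM with total secretome. Egr2 made up 1.59% ± 0.497 of this sum in IC and 3.65% ± 2.44 in EV, but 16.3% ± 3.12 with 3–100 kDa proteins and 15.2% ± 1.42 with total secretome. Its share in each library of either preparation (lowest 13.1%) was above that in every IC and EV library (highest 5.99%). The share of Egr3 was 44.3% ± 10.2 in IC and 17.8% ± 3.71 with 3–100 kDa proteins, without overlap, and 24.5% ± 8.76 with total secretome, which reached into the IC range. Egr1 accounted for 51.6% ± 11.9 in IC and 64.3% ± 2.45 with 3–100 kDa proteins, with overlap.

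The ratio of Egr2 to Egr1, which is independent of scaling between libraries, was 0.0322 ± 0.0140 in IC and 0.0557 ± 0.0330 in EV. It was 0.253 ± 0.0468 with 3–100 kDa proteins and 0.265 ± 0.0110 with total secretome. The last 2 conditions overlapped in this ratio, although Egr1 and Egr2 each had a higher mean with 3–100 kDa proteins.

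**Figure D3:**
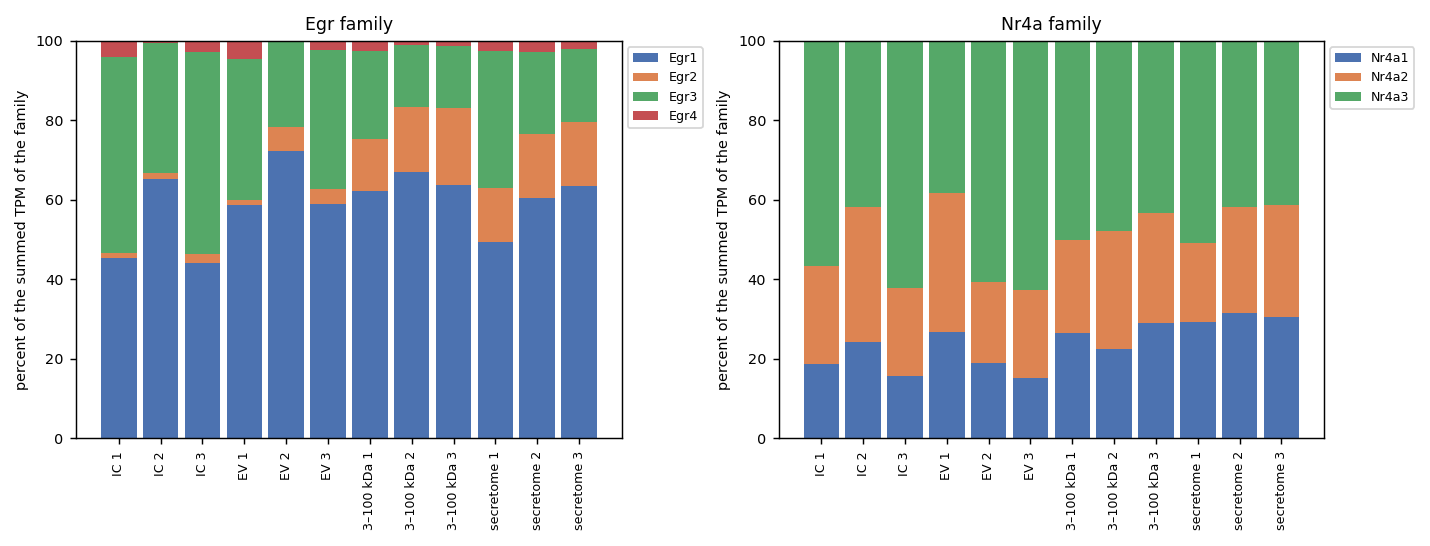
Percent of the summed TPM of the Egr family (left) and of the Nr4a family (right) taken by each gene in the 12 libraries, stacked to 100. The Egr2 band is thin in the IC and EV libraries and lies between 13.1% and 19.3% in the 3–100 kDa and total secretome libraries.

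Nr4a levels summed to 11.5 ± 3.55 TPM in IC, 14.1 ± 4.11 TPM in EV, 22.0 ± 5.10 TPM with 3–100 kDa proteins and 22.3 ± 7.22 TPM with total secretome. Nr4a1 supplied 19.5% ± 4.32 in IC and 30.4% ± 1.18 with total secretome, where every library was above those of IC. With 3–100 kDa proteins its share was 26.0% ± 3.28, which overlapped with IC. Nr4a3 was the main contributor on average in each condition, from 44.6% with total secretome to 53.8% in EV. The ratio of Nr4a1 to Nr4a2 was 0.726 ± 0.0278 in IC and 1.24 ± 0.203 with total secretome, again without overlap. That of Nr4a3 to Nr4a1 was 2.91 ± 1.13 in IC and 1.47 ± 0.234 with total secretome, with overlap.

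Correlations between members were computed over all libraries and within conditions. Over the 12 libraries, Pearson's r on scaled log2(TPM + 1) was 0.96 for Egr1 and Egr2, and it was 0.72 once the mean of each condition had been removed. For Nr4a1 and Nr4a2 these values were 0.91 and 0.90, for Nr4a1 and Npas4 0.83 and 0.92, and for Egr3 and Egr4 0.90 and 0.77. Egr1 and Egr3, by contrast, had 0.80 over all libraries and 0.04 within conditions. Of the 28 pairs of members 5 were below 0 within conditions, the lowest being Egr2 and Egr4 at -0.36, Egr2 and Egr3 at -0.18 and Egr4 and Nr4a3 at -0.13, and the highest was Nr4a1 with Npas4. These correlations describe 12 libraries that share conditions and replicate numbers, and no p-value is attached.

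The genes most like each member across the 12 libraries were sought among 13270 genes by the same r. For Egr1 they were Spry2 (0.99), an inhibitor of receptor tyrosine kinase signalling, Hk2 (0.99), a hexokinase, and Dusp6 (0.98), an ERK phosphatase. Egr2 was most like Fgfr1, a fibroblast growth factor receptor, Actn1, an actin cross-linker, and Arc, a synaptic activity gene, each at 0.99. Egr3 stood closest to Arpp21, Nefm and Ndel1, each at 0.95, of which Nefm encodes a neurofilament and Ndel1 a dynein regulator. Egr4 was most like Fjx1 (0.91), Dnajc25 (0.90) and the adenosine receptor gene Adora1 (0.90).

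For the Nr4a genes, Nr4a1 was nearest to Prrg4 (0.94), Klf5 (0.94) and Gem (0.93), Nr4a2 to Tas1r2 (0.95), Mdfic (0.93) and Disp1 (0.93), and Nr4a3 to Usp31, Nid1 and Ago2 (0.95 each). Npas4 had the weakest matches, Cpt1a (0.85), LOC100909732 (0.84) and Epas1 (0.83). No 2 members shared a gene among these.

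The partners and regulators of the members were examined in lists that had been drawn up with results of these libraries known, and they are therefore not independent evidence of a direction. Some of the called genes reached 1 TPM in fewer than 3 IC libraries and so, like Egr2, passed the filter only with the treated libraries. Their number is given with each count, and for them a higher value was favoured by the filter. Nab2, the corepressor that Egr proteins both induce and bind, was at 5.99, 3.38 and 2.68 TPM in IC and 8.97, 6.83 and 7.22 TPM in EV. It was at 20.7, 26.5 and 22.4 TPM with 3–100 kDa proteins and 13.7, 16.9 and 15.3 TPM with total secretome, the same order of conditions as Egr1 with no overlap. Nab2 rose with 3–100 kDa proteins (log2 difference 2.35 ± 0.24, limma adjusted p = 0.00330) and with total secretome (1.77 ± 0.24, adjusted p = 0.0142), and the EV difference was 0.83 ± 0.27 (adjusted p = 0.9997). It was lower in EV than with 3–100 kDa proteins (-1.51 ± 0.18, adjusted p = 0.0244). Nab2 was the 1 of 8 co-regulators (Nab1, Nab2, 3 retinoid X receptors and 3 Arnt family genes) past the FDR in either preparation, and 0 of 8 were past it in EV in limma, with 1 at an unadjusted p under 0.05. The median over these 8 was -0.16 with 3–100 kDa proteins and -0.23 with total secretome. Of all genes tested, 2.83% rose with 3–100 kDa proteins, 1.68% with total secretome and 0.102% with EV. In EV, 360 of the 12754 genes had an unadjusted p under 0.05 in limma.

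Transcription factors and coactivators that act upstream of the members were examined next. Of 16 such genes that passed the filter, 3 rose with 3–100 kDa proteins, namely Crem (1.79 ± 0.32, adjusted p = 0.0315 in limma), which includes an inducible repressor of CREB sites, the SRF partner Elk3 (1.34 ± 0.18, adjusted p = 0.0103) and the CREB relative Atf1 (1.09 ± 0.22, adjusted p = 0.0467). With total secretome 1 rose, Crem again (1.43 ± 0.24, adjusted p = 0.0328), and with EV 0 did, 2 having an unadjusted p under 0.05. Of all genes tested 2.83%, 1.68% and 0.102% rose in these comparisons. Of 14 ERK and calcium kinase genes 0 passed the FDR in limma in any comparison with IC, and 0, 2 and 1 had an unadjusted p under 0.05 for EV, 3–100 kDa proteins and total secretome, where 360, 2176 and 2075 of all genes had. Rps6ka3 had the greatest positive difference in each, at 0.30 ± 0.47, 0.77 ± 0.34 and 0.53 ± 0.30. On the negative side Rps6ka2 was at -0.04 ± 0.16, -0.49 ± 0.15 and -0.50 ± 0.15 and Camk2a at -0.12 ± 0.16, -0.36 ± 0.12 and -0.32 ± 0.15.

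Feedback inhibitors of ERK are themselves induced by it. With both 3–100 kDa proteins and total secretome the same 5 of 10 genes (Dusp4, Dusp5, Dusp6, Spry2 and Spry4) were past the FDR, beside 2.83% and 1.68% of all genes in that direction, with list medians of 1.20 and 1.03. Of these 5, 1 (Dusp5) needed the treated libraries to pass the filter. Dusp5, whose promoter shares the paired motifs of Egr1 and Egr2, was at 1.02, 0.549 and 1.20 TPM in IC and 1.03, 0.515 and 2.11 TPM in EV. Its level was 5.65, 6.34 and 9.54 TPM with 3–100 kDa proteins and 4.68, 3.17 and 3.29 TPM with total secretome, so that EV and IC overlapped and the other conditions stood above them. The log2 differences of Dusp5 were 2.10 ± 0.29 (adjusted p = 0.0109 in limma) and 1.30 ± 0.24 (adjusted p = 0.0421). In EV 0 of 10 were past the FDR in limma, beside 0.102% of all genes in the higher direction. There 4 of the 10 had an unadjusted p under 0.05, as had 360 of the 12754 genes.

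Other immediate early factors, mainly of the Fos, Jun and Klf families, were also counted. With 3–100 kDa proteins 10 of 17 rose, with total secretome 6 of 17 and with EV 2 of 14 (Fos and Fosl1), beside 2.83%, 1.68% and 0.102% of all genes. The treated libraries were needed to pass the filter by 6 of these 10 (Atf3, Csrnp1, Fosb, Fosl1, Fosl2 and Maff). They were needed by 4 of the 6 (Fosb, Fosl1, Fosl2 and Maff) and by 1 of the 2 (Fosl1). In EV, 10 of the 14 had an unadjusted p under 0.05 in limma, as had 360 of the 12754 genes. The EV list median was 0.70, with 8 genes wholly above IC and 1 wholly below, against 3.70% and 2.48% of genes. Fos was at 4.46, 4.05 and 2.24 TPM in IC, 21.8, 19.4 and 15.3 TPM in EV, 7.50, 11.2 and 13.0 TPM with 3–100 kDa proteins and 15.5, 22.5 and 21.6 TPM with total secretome. Fos in EV thus lay above every 3–100 kDa library, the opposite placement to that of Egr1 and Egr2, with a log2 difference of 0.77 ± 0.26 between them that did not pass the FDR (adjusted p = 0.373 in limma). Against IC, Fos rose by 2.13 ± 0.24 with EV (adjusted p = 0.0399 in limma), while the 3–100 kDa value of 1.37 ± 0.29 had an adjusted p of 0.0511. The EV call of Fos was lost without any 1 of the 6 libraries, and that of Fosl1 was kept without IC replicate 2 and lost without IC replicate 1 or 3, while without any 1 EV library Fosl1 did not pass the filter. Fosb was closer in placement to Egr2, at 0, 0.0669 and 0.159 TPM in IC, 0.151, 0.0940 and 0.343 TPM in EV, 4.89, 7.25 and 7.88 TPM with 3–100 kDa proteins and 5.61, 8.61 and 8.32 TPM with total secretome.

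Among 14 activity-regulated effector genes, 7 rose with 3–100 kDa proteins and 5 with total secretome, and in EV 0 did in limma, with 2 at an unadjusted p under 0.05. The shares of all genes that rose were 2.83%, 1.68% and 0.102%, and they also stand beside the counts of genes with described Egr binding. Arc and Gadd45b needed the treated libraries to pass the filter, as did 2 (Arc and Fgf2) of the 5 genes with described Egr binding that are counted next for either preparation. Arc, which encodes a synaptic capsid-like protein, rose by 2.56 ± 0.33 (adjusted p = 0.00909 in limma) and 1.99 ± 0.32 (adjusted p = 0.0273). The neurotrophin gene Bdnf rose by 1.97 ± 0.24 (adjusted p = 0.00657 in limma) and 1.89 ± 0.24 (adjusted p = 0.0115). Among genes for which Egr binding has been described, 5 of 10 rose with 3–100 kDa proteins and 5 of 9 with total secretome (Nab2, Arc, Cd44, F3 and Fgf2 in both), and 1 of 9, the adhesion receptor gene Cd44, rose with EV, a call lost without any 1 of the 6 libraries. In these fits none of the 7 lists had a gene past the FDR in the lower direction in any comparison with IC. Among the alternatives, 1 gene was so with total secretome under the replicate block and 1 without IC replicate 2. With 3–100 kDa proteins 1 was so with all 12 libraries in 1 fit.

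**Figure D4:**
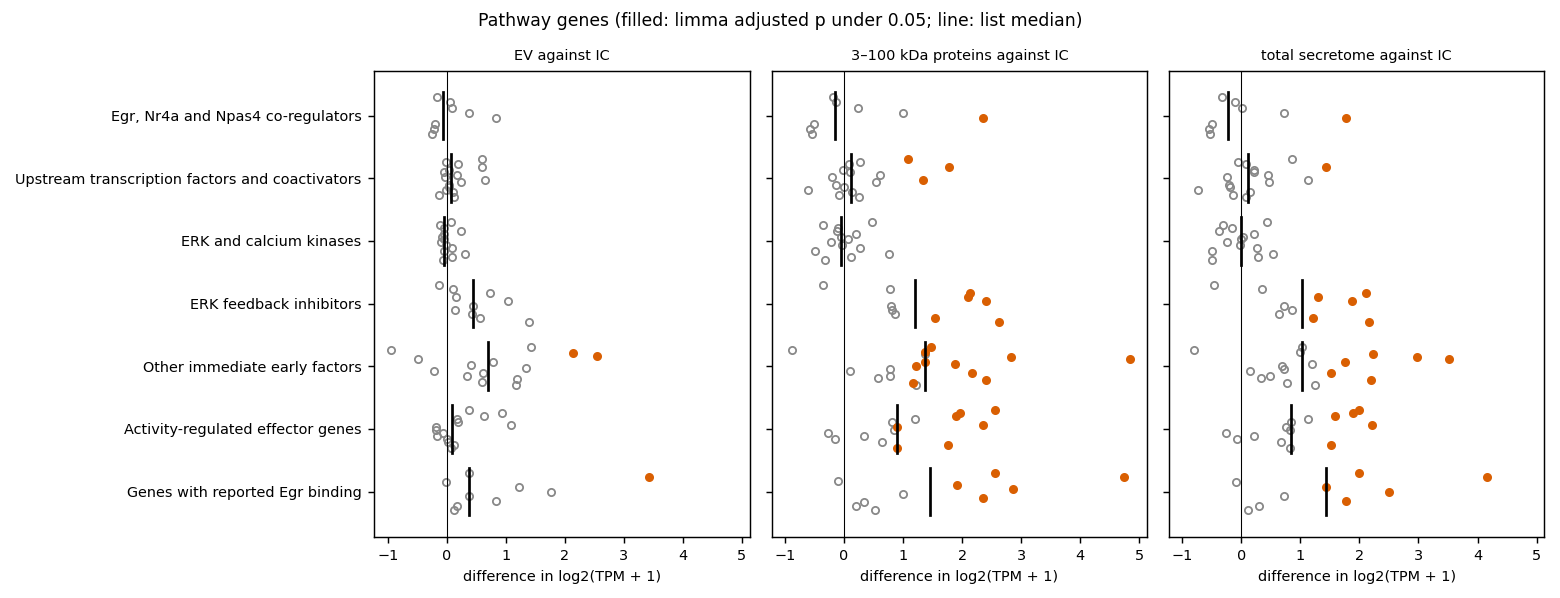
Difference from IC in scaled log2(TPM + 1) of every gene of the 7 lists that passed the filter (1 point a gene, filled where past an FDR of 0.05 in limma), in a panel each for EV, 3–100 kDa proteins and total secretome, with a vertical line at each list's median. Feedback inhibitors, other immediate early factors, activity-regulated effectors and genes with described Egr binding have medians from 0.83 to 1.46 with 3–100 kDa proteins and total secretome, and the medians of co-regulators, upstream factors and kinases lie between -0.23 and 0.12.

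Markers of the cell types in the cultures were summed as a check. Summed TPM of 6 neuron markers (Tubb3, Map2, Rbfox3, Snap25, Syt1 and Syn1) was 2271 to 2394 in IC and 2166 to 2406 in EV. It was 1833 to 2146 with 3–100 kDa proteins and 1794 to 2261 with total secretome, below all IC libraries, the latter by a narrow margin. The largest part was Tubb3, with means of 1417 TPM in IC, 1159 with 3–100 kDa proteins and 1151 with total secretome. Only Snap25 had a higher mean in both preparations (182 and 178 TPM) than in IC (168 TPM). Of these 6 genes 0 were past the FDR in limma and 0 had an unadjusted p under 0.05 in comparisons with IC. Astrocyte markers summed to 875 to 1358 in IC, 1114 to 1510 in EV, 1089 to 1401 with 3–100 kDa proteins and 1228 to 1619 with total secretome. Among them Gfap, named after its values were seen, was at 85.1, 361 and 128 TPM in IC, 491, 617 and 362 TPM in EV, 242, 447 and 310 TPM with 3–100 kDa proteins and 271, 635 and 408 TPM with total secretome, without overlap between EV and IC. Its log2 differences from IC (1.58 ± 0.51, 1.05 ± 0.51 and 1.40 ± 0.55) did not pass the FDR in limma. Oligodendrocyte lineage markers ran from 131 to 182 in IC, 143 to 173 in EV, 101 to 147 with 3–100 kDa proteins and 187 to 207 with total secretome. Markers of microglia (at most 2.10 TPM in sum), fibroblasts and mural cells (at most 4.28) and endothelium (at most 0.595) were low in every library, and no marker in the tables was at 0 in all 12. The mural marker Pdgfrb, named after its values were seen, fell with 3–100 kDa proteins (-1.43 ± 0.24, adjusted p = 0.0239 in limma). Pdgfrb was the 1 marker of any list past the FDR against IC. It passed the filter there only through the IC libraries, which favoured a lower value. Col1a1, a fibroblast collagen gene of the same list, went the other way in that comparison (1.10 ± 0.24, adjusted p = 0.0580 in limma). Col1a1 passed the filter only through the 3–100 kDa libraries, which favoured a higher value. The part of cell composition in the Egr and Nr4a values was not tested, and in cultures measured as a whole fewer cells of a type and less RNA per cell cannot be told apart.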

How the data were processed

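RNA from rat neuroglial cultures was sequenced as 12 mRNA libraries (4 conditions, 3 libraries each). The labels and the article differ on these libraries: the labels give a DNBSEQ strand-specific library and newborn pups, and the article a KAPA kit, a NextSeq instrument and slightly older pups. The read processing is given by the article alone, and the labels do not say whether it applies here. As the article describes, the authors trimmed reads (Trimmomatic, Cutadapt), quantified transcripts with Salmon and summed them per gene with tximport, and the labels give genome Rnor_6.0. The deposited files hold TPM (transcripts per 1e+06 transcripts), 1 value per gene row (32285 rows, 28111 names). TPM keep no read depth, so precision comes from the replicates alone. A value of 0 can be a failed estimate, since Rps6, a ribosomal gene, is listed at 0 in all 12 libraries. Rows of one name were summed, and libraries were scaled by median of ratios. For each comparison, genes that reached 1 TPM in 3 or more of 6 libraries were tested on log2(TPM + 1) with limma 3.58.1 (trended eBayes, two-sided, Benjamini-Hochberg, FDR 0.05) in R 4.3.3, after a check on simulated data. The study's own edgeR test needs counts and was not repeated. Promoter sequences came from RefSeq, build GRCr8.

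The members, lists and tests were chosen with earlier results of these data known. All 8 members are named, and from each list every gene past the FDR against IC, or otherwise those with the largest difference in either direction, and the 3 genes most correlated with each member. Names absent from the tables (Mrtfb, Ier2, Vgf, Pecam1) were not analysed here, and Mrtfa stood as Mkl1. Alternatives were no scaling, pseudocounts of 0.1 and 0.5, no filter, all 12 libraries in 1 fit, eBayes without trend, a replicate block and omission of each library. Replicate numbers were read as pairing samples only where all 3 same-numbered pairs deviated together (r over 0.1). This held for total secretome against IC (lowest r 0.16), EV against 3–100 kDa proteins (0.29), EV against total secretome (0.19) and total secretome against 3–100 kDa proteins (0.21), from the data alone. The labels give no pairing, and EV and 3–100 kDa proteins against IC did not meet this rule, so pairing was not settled. The study names a day covariate for IC and EV, without saying which library belongs to which day, so no day term was fitted.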

Additional observations from a re-analysis of the deposited data

How the results depend on the processing

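With 3–100 kDa proteins and with total secretome, each member that passed the filter was above IC in every alternative in which it passed the filter, though leaving out 1 library moved Nr4a3 to 0.33 (from 0.72) and 0.24 (from 0.63), and Nr4a2 with total secretome to 0.38 (from 0.72). With EV, leaving out 1 library turned Egr3 (-0.17 to 0.51) and Nr4a3 (-0.14 to 0.66) across 0. A pseudocount of 0.1 gave log2 differences of 5.68 for Egr2 and 1.99 for Egr4 with 3–100 kDa proteins, and 4.95 and 2.08 with total secretome. Counts of genes past the FDR varied as follows. With all 12 libraries in 1 fit they were 59 for EV (18 as reported), 940 for 3–100 kDa proteins (424) and 539 for total secretome (252) against IC, 183 for EV against 3–100 kDa proteins (68), 58 for EV against total secretome (24) and 0 for total secretome against 3–100 kDa proteins (2), and Egr3 and Nr4a1 were then past the FDR with 3–100 kDa proteins and Nr4a1 with total secretome. With no filter EV against 3–100 kDa proteins gave 43, and with no scaling total secretome against 3–100 kDa proteins gave 4. Leaving out 1 library, the 6 counts ranged from 0 to 21, from 88 to 483, from 31 to 809, from 2 to 72, from 0 to 55 and from 0 to 3, in the order above. Against IC, the count for EV was 0 without IC replicate 1 or any 1 EV library, and the lowest for the other preparations came without 3–100 kDa replicate 2 and without total secretome replicate 3, and the highest without IC replicate 2 for all 3 comparisons with IC. The cause was not tested.

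With the replicate number as a block, counts were 0 for EV against IC and 192 for 3–100 kDa proteins against IC. There the numbers were not read as pairing the samples (lowest r -0.18 and -0.25). Counts were 341 for EV against 3–100 kDa proteins and 5 for total secretome against 3–100 kDa proteins, where they were read so. The block changed no call of a member and moved no other count of genes by over 1.5 times.

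Pathway list counts against IC were 3 for EV, 29 for 3–100 kDa proteins and 21 for total secretome. For EV the count was 1 with a pseudocount of 0.1, 1 with no filter, 8 with all 12 libraries in 1 fit and 0 under the block. Omitting 1 library gave 0 to 1, 10 to 24 and 4 to 31. These called genes kept their direction wherever they passed the filter, and 20 of 29 and 16 of 21 were called in every alternative that kept all libraries, but 10 and 4 in every omission. The median of the members for EV ranged from 0.079 (without IC replicate 2) to 0.36, and that of total secretome against 3–100 kDa proteins from -0.30 to 0.064, the last, without 3–100 kDa replicate 3, being a reversal of -0.08.

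TPM hold no depth, so counting error is not given. With 3 libraries a condition, the smallest two-sided exact permutation p for a single gene is 0.1.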

Other observations

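Among the other immediate early factors, Fosl1, a Fos relative listed at 0, 0.138 and 0 TPM in IC, was at 4.36, 5.42 and 5.55 TPM in EV, 22.1, 29.8 and 35.5 TPM with 3–100 kDa proteins and 5.59, 13.7 and 16.2 TPM with total secretome, the order of conditions seen for Egr1. It was lower in EV than with 3–100 kDa proteins by 2.31 (SE 0.23, limma adjusted p = 0.0145) on the log2 scale. With 3–100 kDa proteins Klf10 (2.16 ± 0.28, limma adjusted p = 0.00842), Maff (2.40 ± 0.31, adjusted p = 0.00909), Ier5 (1.88 ± 0.27, adjusted p = 0.0125) and Jun (1.21 ± 0.16, adjusted p = 0.00842) also rose, as did Atf3 (1.48 ± 0.22, adjusted p = 0.0144 in limma), Myc (1.16 ± 0.19, adjusted p = 0.0210), Csrnp1 (1.37 ± 0.26, adjusted p = 0.0355) and Fosl2 (1.38 ± 0.27, adjusted p = 0.0444). Of these, Fosl1, Maff, Atf3, Csrnp1 and Fosl2 passed the filter on low values only with the treated libraries. Btg2, an antiproliferative early gene, had differences of -0.94 ± 0.28 with EV, -0.88 ± 0.27 with 3–100 kDa proteins and -0.81 ± 0.27 with total secretome, none past the FDR in limma (adjusted p = 0.976, 0.152 and 0.190).

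Among secreted products of active neurons, Scg2, which encodes secretogranin II, rose by 1.76 ± 0.20 with 3–100 kDa proteins (limma adjusted p = 0.00520) and 1.53 ± 0.17 with total secretome (adjusted p = 0.00745), and its EV difference was 0.12 ± 0.18 (adjusted p = 0.9997). Scg2 was lower in EV than in either, by 1.63 (SE 0.18, limma adjusted p = 0.0182) and by 1.39 (SE 0.14, adjusted p = 0.0143). Nptx2, a neuronal pentraxin that clusters AMPA receptors, rose by 2.36 ± 0.16 (limma adjusted p = 0.00122) and 2.21 ± 0.16 (adjusted p = 0.00268), with 1.09 ± 0.19 in EV (adjusted p = 0.161). The other effector genes past the FDR with 3–100 kDa proteins were Gadd45b (1.90 ± 0.27, limma adjusted p = 0.0126), Sik1 (0.89 ± 0.15, adjusted p = 0.0245) and Nrn1 (0.90 ± 0.18, adjusted p = 0.0461).

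The lowest differences of the other lists did not pass the FDR. With 3–100 kDa proteins and with total secretome they were -0.57 ± 0.26 and -0.55 ± 0.24 for Rxrb, a heterodimer partner of Nr4a1 and Nr4a2, -0.61 ± 0.25 and -0.74 ± 0.25 for Mef2c, and -0.36 ± 0.16 and -0.47 ± 0.19 for the phosphatase gene Dusp1. Per1 was at -0.27 ± 0.16 and -0.26 ± 0.17 and Cdk5r1 at -0.10 ± 0.21 and -0.10 ± 0.19. Among kinases they were -0.49 ± 0.15 for Rps6ka2 with 3–100 kDa proteins and -0.51 ± 0.24 for Rps6ka5 with total secretome. In EV the lowest were Rxrg (-0.25 ± 0.42), Mkl1 (-0.13 ± 0.19), Camk2a (-0.12 ± 0.16), Dusp1 (-0.14 ± 0.18), Nrn1 (-0.18 ± 0.18) and Cdk5r1 (-0.02 ± 0.25).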
